A study of Mus musculus with 12 samples.

Results

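Wild-type palatal shelf at embryonic stage E13.5 was compared with control maxillary process at E11.5, over all genes. Both are labelled mesenchyme, but the palatal libraries also held clear levels of epithelial markers, given below. The libraries were chosen by their labels, and they are 6 of the 12 in the series, 3 for each tissue. The deposited count and TPM tables of both tissues were joined by Ensembl gene identifier, giving 53392 genes. The palatal shelf embryos were Pdgfra+/+, so that both copies of the PDGF receptor alpha gene were unaltered. The maxillary process embryos were Srsf3fl/fl;Wnt1-Cre+/+, so that both copies of the splicing factor gene Srsf3 were floxed and, as labelled, no Cre transgene was carried. All embryos were on the 129S4 background, ectoderm was digested away with trypsin, and total RNA of all samples was isolated together. The design text names the replicates as biological, and whether a library holds 1 embryo or several is not given in the sources used here. Stage, tissue, mouse line and the lane tag in the labels all split the 6 libraries the same way, so their effects cannot be told apart. Differences that were large and held in every library are therefore put first, and smaller ones are given mainly where a whole gene list moved.

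In the mouse embryo the maxillary processes grow beneath the eye and form the upper jaw, and the palatal shelves are outgrowths of these processes that later lift above the tongue and fuse into the secondary palate. The mesenchyme of both comes largely from the cranial neural crest, with vessels and blood from other sources, and is covered by an epithelium that exchanges Shh, Fgf, Bmp and Wnt signals with it. Over these stages the mesenchyme is known to slow its proliferation, lay down collagen-rich matrix and begin to form bone at the lateral edges.

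The other 6 libraries, of the same tissues and stages, served as a second pair that the first fit did not use. They were palatal shelves homozygous for the Pdgfra allele labelled PI3K (PdgfraPI3K/PI3K) and maxillary processes labelled Srsf3fl/fl;Wnt1-Cre+/Tg (cKO), in which a Wnt1-driven Cre acts in the neural crest. Their tissue, stage, line and lane tag split in the same way. Srsf3 itself was at 471, 704 and 646 CPM in the 3 libraries labelled cKO against 632, 604 and 560.3 CPM in the controls, ranges that overlap. Each set was scaled in its own fit, and totals over a gene do not show whether its floxed part was removed.

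Total estimated counts were 30654736 to 35330324 in the wild-type palatal libraries and 15932541 to 21722187 in the control maxillary libraries. After thinning to equal depth, 20794 to 21129 genes had at least 1 count in a palatal library and 18454 to 18984 in a maxillary one. On the first principal component (82.9% of variance) the tissues parted, and on log2 values libraries correlated at 0.980 to 0.991 within a tissue and 0.901 to 0.935 between tissues. Of 4 Y-linked genes, each was at 21.8 to 70.4 CPM in wild-type palatal library 3 and control maxillary library 1 and at most 0.0326 CPM in the other 4 libraries, so sex differs within both groups. Wild-type palatal library 1 and control maxillary library 3 stand apart for several gene groups below, and counts without them are given there.

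Of 15752 genes tested with edgeR's quasi-likelihood F-test, 7965 (50.6%) passed a false discovery rate (FDR) of 0.05, 4274 (27.1%) higher and 3691 (23.4%) lower in the palatal shelf. With scaling by library totals alone the split was 4784 higher and 2933 lower. With limma on log2(TPM + 1), which changes the unit and the test together, it was 4781 higher and 1966 lower. The median log2 fold change over all genes, palatal minus maxillary, was 0.03 in the main fit, 0.12 with totals alone and 0.16 with limma on log2(TPM + 1). A difference is called large here where the FDR was under 0.05, the fold change was at least 4 (2 on the log2 scale) and no library of one tissue overlapped the other. In all 9775 genes (62.1%) did not overlap, and 1693 (10.7%) were large, 1515 (9.62%) higher and 178 (1.13%) lower in the palatal shelf. The excess of rises grew with size: past 64-fold there were 258 rises and 12 falls. Protein-coding genes made up 1360 of the large rises and 145 of the large falls.

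In the other 6 libraries 6900 of 15948 genes tested passed (43.3%), 23.4% higher and 19.9% lower in the palatal shelf. Of these genes 1711 (10.7%) were large differences, 9.54% higher and 1.19% lower. Of the large rises of the first pair 1074 were large rises there too, which is 70.9% of the first set and 70.6% of the second. Of the large falls 109 were shared, 61.2% and 57.7%. Among 1574 large genes tested in both pairs, 1559 had the same direction, and the plot of one fold change against the other shows the few exceptions.

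**Figure D1:**
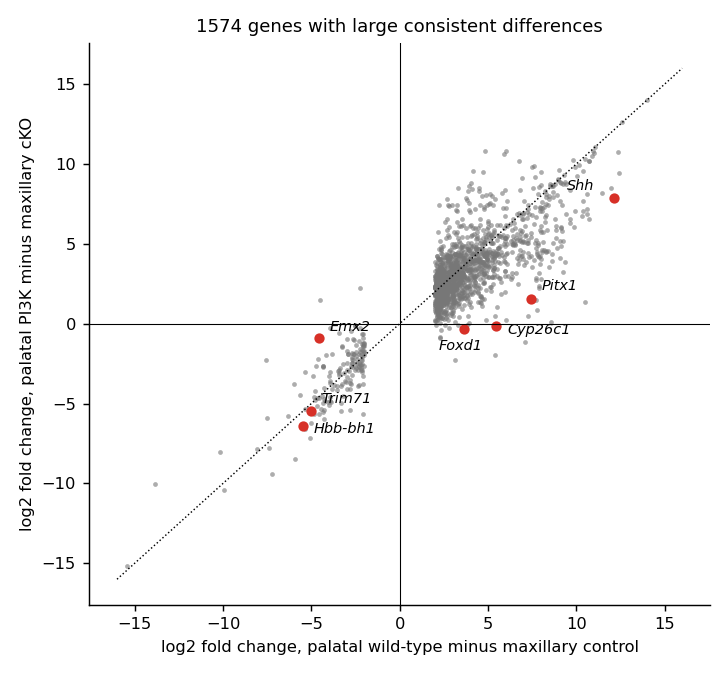
Each point is 1 of the 1574 genes with a large difference in the first pair that were tested in both pairs. The horizontal axis is the log2 fold change of wild-type palatal shelf over control maxillary process, the vertical axis that of PI3K palatal shelf over the maxillary process labelled cKO, with equal values on the dotted line and named genes in red. Most points keep their direction, with Foxd1 and Cyp26c1 (3.64 and 5.46 in the first pair) below 0 in the second.

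The labelled tissue was checked against markers. The mesenchymal genes Prrx1 and Twist1 were expressed in all 6 libraries, at 392 to 609 and 372 to 788 TPM. Of 10 Hox genes that mark the second arch and more caudal tissue, 0 passed the filter on low counts, the highest value being 0.33 CPM (Hoxb3 in control 1), and 6 had 0 counts in all control maxillary libraries. Of 8 genes known from lower jaw mesenchyme 4 were tested, Dlx3 was a large rise (3.32) and Dlx5, Dlx6 and Gsc were not called. Their summed level was 34.2, 54.2 and 65.9 CPM in the maxillary and 121, 31.6 and 70.4 CPM in the palatal libraries, while Hand1 and Hand2 reached at most 0.0274 and 1.22 CPM. Of 12 forebrain genes 6 were tested, 4 rose and 2 fell, all large, with a median log2 fold change of 4.10 and summed levels of 15.5, 20.2 and 78.6 CPM in the maxillary and 71.8, 113 and 87.1 CPM in the palatal libraries. The highest maxillary sum, in control 3, holds 72.9 CPM of Emx2. Of 10 olfactory and nasal genes 5 were tested, 1 rose and 1 fell, with sums of 22.6, 14.2 and 10.3 CPM against 95.6, 115 and 85.3 CPM. Sox2, which oral epithelium also expresses, is in both lists and made up 61.4, 104 and 74 CPM of the palatal sums. The part of such cells in the results was not tested. For the lower jaw, forebrain and olfactory lists the shares over all genes were 27.1% higher (9.62% large) and 23.4% lower (1.13% large).

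Markers of the covering ectoderm had the highest median of the lists. Of 23 ectoderm markers, all tested, 22 rose and all 22 rises were large, where 27.1% of all genes rose, 9.62% by a large amount. The median log2 fold change of the markers was 7.25 against 0.03 over all genes. Their summed level was 1388, 1672 and 1821 CPM in the wild-type palatal libraries and 66.2, 51.9 and 45.6 CPM in the control maxillary libraries, and no defining marker was at 0 in every maxillary library. In bulk RNA fewer cells of a type and less RNA per cell cannot be told apart. All tissue was treated with trypsin to take this layer off, per the labels' protocols.

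Keratin 14 (Krt14, ENSMUSG00000045545.8; chromosome 11, 100203162 to 100207548, minus strand; mm10, as are all positions here), an intermediate filament of basal epithelial cells, read 0.462, 0 and 0.0923 CPM in control maxillary libraries 1 to 3 and 151, 197 and 209.5 CPM in wild-type palatal libraries 1 to 3. Every palatal value lies far above every maxillary one. The change (log2 fold change 10.06, SE 0.408, FDR 1.36e-05) rests on 9 maxillary counts in all. Desmoplakin (Dsp), a protein of the desmosomes that join epithelial cells, read 2.24, 0.485 and 0.784 CPM in the maxillary and 270.2, 427 and 412 CPM in the palatal libraries (log2 fold change 8.36, SE 0.433, FDR 2.83e-05). The adhesion molecules Epcam (5.95) and Cdh1 (7.25) and the basal cell transcription factor Trp63 (6.03) were all large rises. Tfap2c, which the mesenchyme also expresses, was the exception at 47, 45 and 38.2 CPM in maxillary and 23.7, 40.6 and 28.5 CPM in palatal libraries, ranges that overlap (log2 fold change -0.49, SE 0.196, FDR 0.0723).

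Of the 15 largest rises among genes with at least 10 CPM in the higher tissue, several are genes of epithelia. Ehf, an epithelial Ets factor, Trpm5, a cation channel, Dmrt3 and F2rl1 had 0 counts in all 3 control maxillary libraries. Against a floor of 3 counts over the group they were at least 538-fold, 474-fold, 237-fold and 183-fold higher in the palatal shelf. Krt17 had 1 maxillary count, giving a ratio of 6716 (95% exact binomial counting interval 1205 to 265300), and Foxe1, a transcription factor of oral epithelium and thyroid, had 3, giving 903.7 (309 to 4383). Those intervals cover counting error alone. Mmp9, a matrix protease, varied widely within the tissue, at 133, 6.71 and 33.7 CPM in palatal libraries 1 to 3 against 0, 0 and 0.231 CPM.

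**Figure D2:**
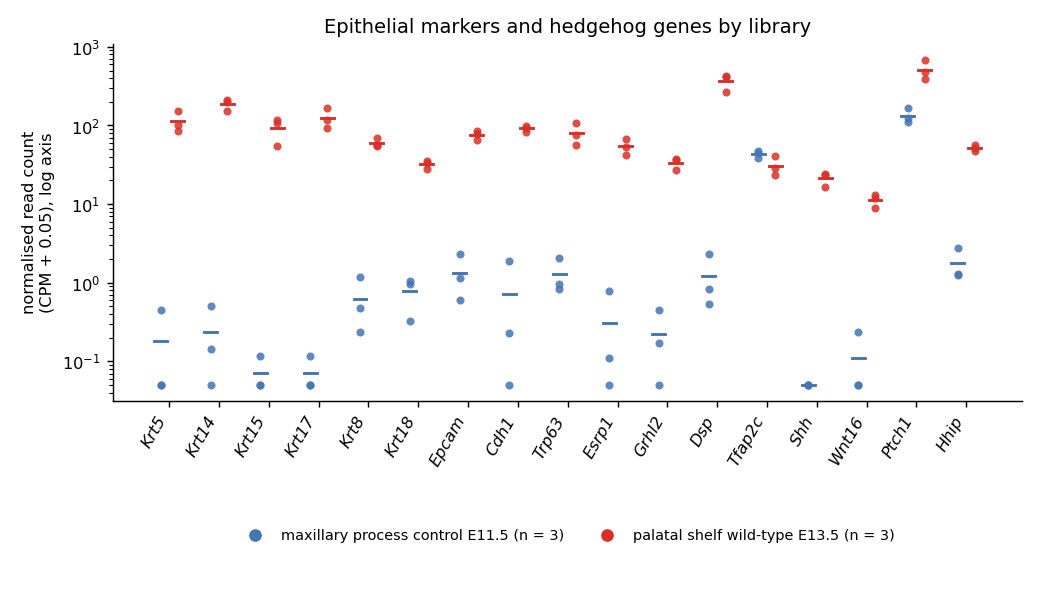
Normalised read counts (CPM + 0.05, log axis) of epithelial markers and of hedgehog and Wnt genes, 1 point per library and bars at the group means (n = 3 per tissue). Shh is at 0 CPM in the control maxillary libraries and 16.4 to 24.0 CPM in the wild-type palatal libraries, and of the genes drawn Tfap2c is the one whose tissues overlap.

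Among 24 palate signalling genes 16 rose and 3 fell, 11 of the rises being large, with a median log2 fold change of 1.85. Over all genes 27.1% rose, 23.4% fell and 9.62% were large rises. Several of the ligands are made by the palate epithelium, whose markers rose as given above, and the part of that layer in these rises was not tested. Without palatal library 1 the counts were 13 and 3, and without control 2 they were 12 and 3.

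Sonic hedgehog (Shh, ENSMUSG00000002633.4; chromosome 5, 28456815 to 28467256, minus strand), the ligand that palate epithelium sends to the mesenchyme, had 0 counts in all control maxillary libraries and 16.4, 23.6 and 24 CPM in the wild-type palatal libraries, at least 379.5-fold higher. Its response genes, which mesenchyme expresses, were higher too. Ptch1, the receptor and a target of the pathway, read 164, 111 and 125 CPM in maxillary and 392, 676 and 474 CPM in palatal libraries (log2 fold change 1.95, SE 0.23, FDR 0.00063). Hhip, a secreted hedgehog inhibitor that is also a target, read 2.71, 1.21 and 1.25 CPM in the maxillary and 57, 47.6 and 51 CPM in the palatal libraries (log2 fold change 4.94, SE 0.276, FDR 3.66e-05). Both sets lie apart. Gli1, a transcription factor induced by the pathway, read 75.3, 66.6 and 126 CPM in the maxillary and 137, 210.5 and 123 CPM in the palatal libraries, ranges that overlap, with a small rise (log2 fold change 0.81, SE 0.282, FDR 0.0447).

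Of the Fgf ligands, Fgf7 (4.03) and Fgf18 (4.67) were large rises, while mesenchymal Fgf10 read 24.7, 28.4 and 29.4 CPM in the maxillary and 18.5, 35.9 and 24.6 CPM in the palatal libraries, which overlap. Of the Bmp ligands, Bmp2 (2.17) and Bmp3 (5.82) were large rises and Bmp4 fell (log2 fold change -1.24). Bmp3 went from 0.528, 0.485 and 1.11 CPM to 41.4, 38.4 and 45.8 CPM. On the Wnt side, Wnt16 (7.16), Wnt2 (2.06) and Sfrp2, a secreted Wnt modulator (2.95), were large rises, while Wnt5a, a ligand of early outgrowth, fell (-1.04). Sfrp2 was at 154, 118 and 114 CPM in the maxillary and 1079, 829.8 and 1067 CPM in the palatal libraries, far apart. Inhba, a subunit of activin, was a large rise (3.58), and Tgfb3, the ligand needed for palate fusion, rose by 1.76.

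The PDGF family was read by role. The receptor Pdgfra (ENSMUSG00000029231.15; chromosome 5, 75152292 to 75198215, plus strand) read 328, 350.1 and 413 CPM in maxillary and 492, 457 and 489 CPM in palatal libraries, a small rise without overlap (log2 fold change 0.40, SE 0.11, FDR 0.0188). That call was lost without control 1 (FDR 0.0796), control 2 (0.0968) or palatal library 3 (0.0662), and with all 4 groups in one fit (0.0853). The second receptor Pdgfrb rose by 0.47. Pdgfa, a ligand of PDGFR alpha, went from 3.17, 0.909 and 1.61 CPM to 45.4, 73.3 and 56.6 CPM (log2 fold change 4.97, SE 0.379, FDR 0.000117), the one large difference of the family. Epithelial markers rose as given above, and the part of that layer in the Pdgfa values was not tested. Of the 7 genes 5 rose and 0 fell, where 27.1% and 23.4% of all genes did. The count of rises was 3 without control 1 or control 2. Pdgfc, the other ligand known for roles in the palate, went from 33.6, 27 and 25 to 79.1, 133 and 85.3 CPM (log2 fold change 1.80, SE 0.216, FDR 0.000679). In TPM, which allows genes to be compared, Pdgfa stood at 0.745 to 3.55 against 13.52 to 16.6 for Pdgfc in the maxillary libraries. In the palatal libraries Pdgfa stood at 57.0 to 89.5 TPM and Pdgfc at 44.6 to 76.6. The second pair gave rises of 4.20 for Pdgfa and 1.32 for Pdgfc on the log2 scale.

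Transcription factors that pattern the palate did not move as a block. Of 20 genes 8 rose, 7 of them large, and 5 fell, 1 of them large, with a median log2 fold change of 0.09, against 27.1% and 23.4% of all genes, 9.62% and 1.13% large. The largest rise was that of Meox2, a homeobox gene of the palate, from 0.528, 0.121 and 0.923 CPM to 74.2, 61.6 and 76.9 CPM (log2 fold change 6.99, SE 0.361, FDR 2.83e-05). Sim2 (4.72), Shox2, a gene of the anterior palate (3.55), Pax9 (3.11), Foxf2 (3.04), Foxf1 (2.78) and Osr2 (2.35) were the other large rises. Shox2 read 21.8, 36.3 and 27 CPM in the maxillary and 249.7, 413 and 332 CPM in the palatal libraries, with the lowest palatal value far above the highest maxillary one. Tbx2 was the large fall, from 833, 898 and 878 to 145, 272 and 217 CPM (log2 fold change -2.04, SE 0.214, FDR 0.000418), and Msx1, a homeobox gene needed for palate growth, fell by 1.80. Tbx22, a gene mutated in X-linked cleft palate, read 10.4, 8.24 and 1.06 CPM in the maxillary and 12.9, 31.5 and 23 CPM in the palatal libraries, short of the threshold (log2 fold change 1.80, SE 0.672, FDR 0.0559). Of the same 20 genes 13 rose in the second pair and 3 fell, where 23.4% and 19.9% of all genes did.

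Of 23 general facial mesenchyme factors tested of 24, 4 rose and 12 fell (27.1% and 23.4% of all genes), with a median of -0.40. The falls were mostly small: Twist1 by 0.85, Alx4 by 1.42, Alx1 by 1.29, Prrx1 by 0.55 and Gli3 by 0.96. Ets1 fell by 0.25 on counts and stood at 0.08, without a call, on log2(TPM + 1). The 4 rises were all large, among them those of Pitx1, Tfap2b and Foxd1. Pitx1, a homeobox gene of the lower jaw and oral epithelium, went from 0.462, 0.97 and 0.185 CPM to 62.6, 115 and 89.9 CPM (log2 fold change 7.43, SE 0.433, FDR 4.09e-05), Tfap2b rose by 2.90 and Foxd1 by 3.64. In the second pair Pitx1 gave 1.54 and did not pass (FDR 0.0651, edgeR). The Pitx1 values there were 8.74, 21.3 and 55.8 CPM in the maxillary libraries labelled cKO and 71.2, 119 and 58.2 CPM in the PI3K palatal libraries. A test of the difference between the 2 pairs, over 16877 genes with all 4 groups in one fit, did not pass for Pitx1 (difference 5.87, SE 0.958, FDR 0.0762).

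The retinoic acid pathway, which patterns the face, was mixed, with 4 of 17 genes higher and 5 lower, close to the 27.1% and 23.4% of all genes. The binding proteins Crabp1 and Crabp2 fell by 1.24 and 1.18, and the receptor Rarb by 1.95. The degrading enzymes Cyp26a1 (3.91) and Cyp26c1 (5.46) were large rises at low level, Cyp26c1 from 0.132, 0.485 and 0.0461 to 6.12, 18.4 and 3.87 CPM. They gave 0.02 and -0.17 in the second pair, with neither past the threshold and neither difference between pairs past it (FDR 0.461 and 0.166).

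A further large block was connective tissue matrix. Of 28 genes 27 were tested, 25 rose and 0 fell, 17 rises being large, with a median log2 fold change of 2.68. By comparison, 27.1% of all genes rose, 9.62% by a large amount, and 23.4% fell. Within the maxillary process, control 3 was highest of the 3 in 24 of the 27 genes. Without control 3 all 27 rose, without palatal library 1 the count was 23, and without control 2 it was lowest, at 21.

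Col14a1, a collagen that binds fibril surfaces, went from 0.396, 0.545 and 0.923 CPM to 127, 120.1 and 120.4 CPM (log2 fold change 7.55, SE 0.2, FDR 4.25e-06), with close agreement inside each tissue. Periostin (Postn), a matrix protein of craniofacial mesenchyme, went from 86.2, 164 and 259.7 to 2199, 1771 and 2099 CPM (log2 fold change 3.57, SE 0.38, FDR 0.000432). Elastin (Eln) went from 13.1, 14.4 and 29.4 to 519, 223 and 393 CPM (log2 fold change 4.30, SE 0.426, FDR 0.000333). Tenascin C (Tnc) shows the spread inside the maxillary group, at 10.9, 40.7 and 144 CPM, while the palatal libraries lay close together at 670, 748 and 692 CPM (log2 fold change 3.43, SE 0.783, FDR 0.00881). Small proteoglycans followed, with Fmod (5.998), Aspn (6.78), Dcn (4.73), Lum (3.001) and Bgn (2.68) as large rises. The fibrillar collagen Col3a1 rose by 1.604, and Col1a1 went from 266, 468 and 1047 CPM to 7216, 2318 and 3579 CPM (log2 fold change 2.88, SE 0.592, FDR 0.00567). In TPM, Col1a1 (69.6 to 303) was below Col3a1 (356 to 685) in the control maxillary libraries. In palatal library 1 Col1a1 at 2163 TPM stood above Col3a1 at 1753, and in palatal libraries 2 and 3 it stood below. Fn1 and Ogn were the members that did not pass (log2 fold change 0.59, SE 0.283, FDR 0.12 for Fn1, and log2 fold change 2.48, SE 1.05, FDR 0.085 for Ogn).

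**Figure D3:**
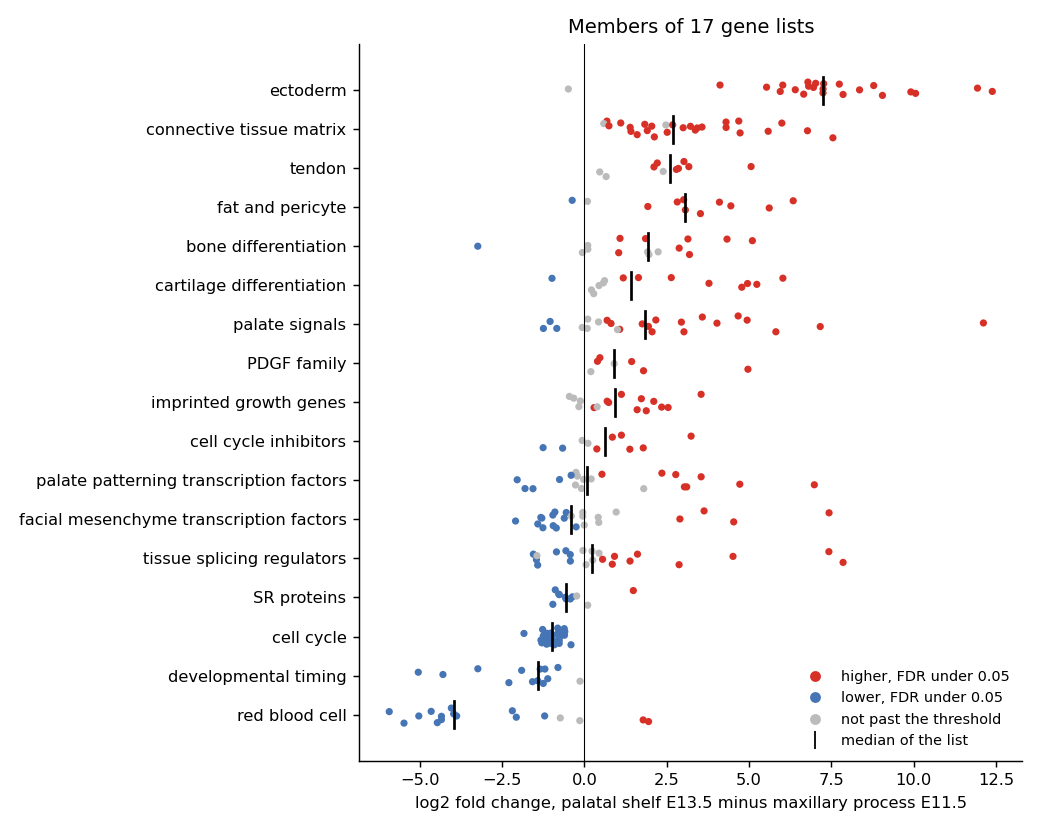
Log2 fold changes of wild-type palatal shelf over control maxillary process for the tested members of the gene lists, 1 point per gene, with the list median marked and the line at 0 for no difference. Colours give the direction past an FDR of 0.05, the ectoderm list sits highest (median 7.25) and the red blood cell list lowest (median -3.97), while the 30 cell cycle genes lie in a narrow band below 0.

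Genes that mark early embryonic timing fell together, where 23.4% of all genes fell and 1.13% were large falls. Of 13 tested of 14 matched, 12 fell and 0 rose, 4 falls being large, with a median of -1.42. Without palatal library 1 the count was 11. These genes encode RNA-binding proteins and chromatin factors that are high in early embryonic cells, and many are known targets of the let-7 microRNAs, whose maturation LIN28 proteins block.

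Lin28b (ENSMUSG00000063804.8; chromosome 10, 45376620 to 45486395, minus strand) read 53.6, 32.9 and 15.5 CPM in control maxillary libraries 1 to 3 and 1.44, 2.24 and 1.46 CPM in the wild-type palatal libraries (log2 fold change -4.29, SE 0.473, FDR 0.000492). Control 1 was highest and control 3 lowest, still above every palatal value. Trim71 (ENSMUSG00000079259.2; chromosome 9, 114507133 to 114564369, minus strand), a ubiquitin ligase and RNA-binding protein of early development, read 60.8, 36.1 and 22.1 CPM in the maxillary and 0.609, 1.53 and 1.41 CPM in the palatal libraries (log2 fold change -5.04, SE 0.475, FDR 0.00028). Its tissues lie apart in the same order of control libraries. Control 1 was highest of the controls in 13 of the 13 genes and control 3 lowest in 12. Sall4 (-3.23) and Mycn (-2.29) were the other large falls. Igf2bp1, which binds growth-related mRNAs, went from 759.6, 609 and 566 to 137, 203 and 176 CPM (log2 fold change -1.91, SE 0.176, FDR 0.000262), and the chromatin protein gene Hmga2 from 1094, 974 and 893 to 254, 532 and 322 CPM (log2 fold change -1.42, SE 0.259, FDR 0.00352). Igf2bp2 fell by 0.80, Igf2bp3 by 1.11, Hmga1 by 1.57, Dnmt3b by 1.34, Arid3a by 1.25 and Prtg by 1.20. Nr6a1 read 5.67, 3.76 and 3.97 CPM in the maxillary and 4.49, 3.61 and 4.1 CPM in the palatal libraries and was not called (log2 fold change -0.13, SE 0.236, FDR 0.666). Lin28a did not pass the filter on low counts: it had 32 counts over the maxillary group and 0 over the palatal group. Of 14 timing genes tested in the second pair 13 fell, where 19.9% of all genes did. Lin28b fell by 4.68 there and Trim71 by 5.44.

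The let-7 family is shown because its seed pairs with a sequence found in the 3′ UTRs of most of these genes. The mature sequences are from RefSeq (GRCm38.p6), given 5′ to 3′ with the seed, bases 2 to 8, in capitals. They lie at chr13:48538239-48538260 (minus strand), chr9:106178846-106178867 (plus strand) and chrX:151913229-151913250 (plus strand).
mmu-let-7a-5p: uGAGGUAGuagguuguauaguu
mmu-let-7g-5p: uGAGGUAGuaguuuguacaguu
mmu-miR-98-5p: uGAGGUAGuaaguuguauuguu

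All 9 mature family members have the same seed. Its match in an mRNA is CTACCTC, searched on the sense strand of the annotated 3′ UTRs. Such a site is given for 4 of the falling genes with the match in capitals, each 24 bases long and read 5′ to 3′ from the minus strand of GRCm38: Lin28b chr10:45381021-45381044, Trim71 chr9:114512471-114512494, Hmga2 chr10:120364223-120364246 and Igf2bp1 chr11:95959356-95959379.
Lin28b site: acccgggcgggaagtCTACCTCat
Trim71 site: aacattgcctaagtcCTACCTCag
Hmga2 site: gccgacattcaatttCTACCTCag
Igf2bp1 site: cagcagtgctattaaCTACCTCag

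The match occurs 4 times in each of the Lin28b, Trim71, Hmga2 and Igf2bp1 3′ UTRs, and at least once in 12 of the 14 timing genes. Dnmt3b and Mycn hold 0. Over 13976 tested genes with an annotated 3′ UTR, 10.7% hold at least 1. Many of the 14 are known let-7 targets, so their share partly follows from the choice of genes and is no test. The 3′ UTRs of the 14 run from 913 to 6337 bases. Nr6a1, which was not called, holds the most of the 14, with 8. Genes with 2 or more matches numbered 181, with a median log2 fold change of -0.16 and 35.9% of them called lower. The 1315 genes with 1 match had a median of 0.04 and 27.2% called lower. The 12480 genes with 0 matches had a median of 0.03 and 24.7% called lower. The 3′ UTRs of the 3 classes also differ in length, with medians of 3645, 2233 and 1106 bases, and the part of length was not tested. Mature let-7 itself was not measured in these polyA libraries, and a match is a description of sequence, not a site shown to act.

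**Figure D4:**
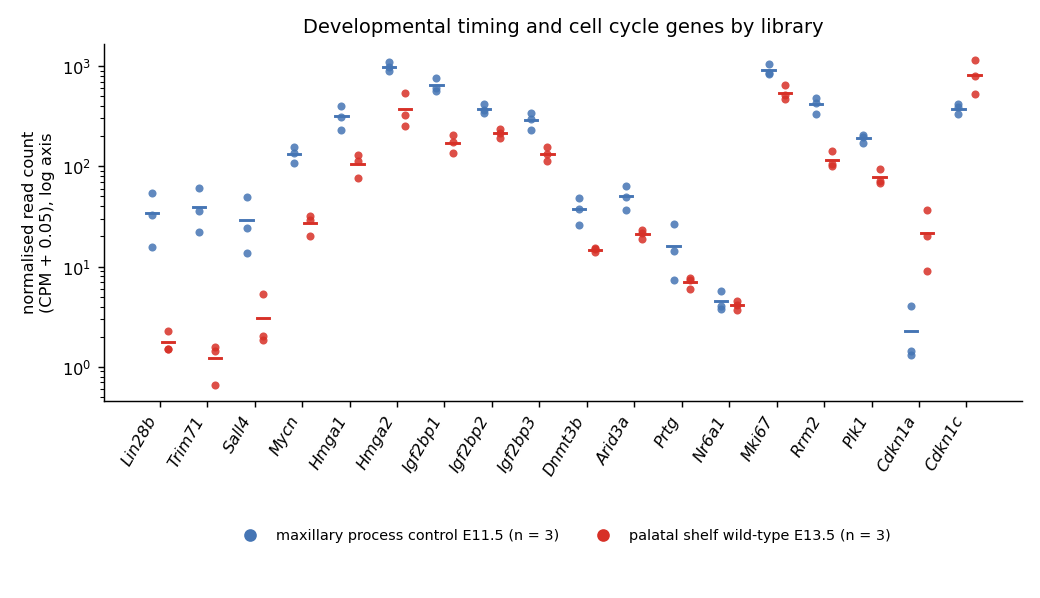
Normalised read counts (CPM + 0.05, log axis) of developmental timing genes and of cell cycle genes and inhibitors, 1 point per library and bars at the group means (n = 3 per tissue). Lin28b and Trim71 lie between 15.5 and 60.8 CPM in the control maxillary process and at or below 2.24 CPM in the wild-type palatal shelf, and Cdkn1a and Cdkn1c move the other way.

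All 30 cell cycle genes tested fell, against 23.4% of all genes, with a median of -0.97 and 0 large differences. These genes act in DNA replication and mitosis and are used as readouts of proliferation. Rrm2, a subunit of ribonucleotide reductase, fell furthest, from 482, 429 and 331 to 100.2, 142 and 106 CPM (log2 fold change -1.83, SE 0.184, FDR 0.000349). The mitotic kinase Plk1 went from 205, 196 and 170.2 to 70.7, 94 and 68.2 CPM (log2 fold change -1.29, SE 0.141, FDR 0.000474), and the topoisomerase Top2a from 930.4, 916 and 902 to 400.5, 537 and 436 CPM (log2 fold change -1.002, FDR 0.000825). Each parts the tissues by less than a factor of 4. Mki67 fell by 0.76 and E2f1, a transcription factor of G1 to S entry, by 0.41. On log2(TPM + 1) Ccne2 stood at 0.08, without a call, against -0.63 on counts. Control 3 was the lowest control library in 29 of the 30 genes, and without it 30 of 30 still fell. All 30 fell in the second pair, against 19.9% of all genes, with a median of -1.04.

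Inhibitors of the cycle were mixed, with 6 of 10 tested higher and 2 lower (27.1% and 23.4% of all genes). The counts were 4 and 2 without palatal library 1. Cdkn1a, which encodes p21, went from 1.25, 1.39 and 4.01 to 36.2, 9.03 and 20 CPM, a large rise (log2 fold change 3.24, SE 0.617, FDR 0.00415), and Cdkn1c, which encodes p57, from 330.1, 386 and 414 to 1141, 523 and 799.6 CPM (log2 fold change 1.12, SE 0.26, FDR 0.00927). For both, palatal library 1 was highest and library 2 lowest, and neither overlaps the maxillary range. Btg2 rose by 1.79 and Rbl2 by 1.38. Gas1, named for growth arrest and also a hedgehog co-receptor, fell by 1.25.

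Promoters of 3 of the falling genes are shown to illustrate the letters searched for in the list. The 150 bases before the annotated start are from RefSeq (GRCm38.p6), read 5′ to 3′ along the gene, minus strand in each case: Cdc20 chr4:118437344-118437493, Cdk1 chr10:69352913-69353062 and Top2a chr11:99024190-99024339. Capitals mark the CCAAT box or its reverse complement ATTGG, and TTTGAA, the core of the cell cycle homology region, or its reverse complement TTCAAA.
Cdc20 promoter: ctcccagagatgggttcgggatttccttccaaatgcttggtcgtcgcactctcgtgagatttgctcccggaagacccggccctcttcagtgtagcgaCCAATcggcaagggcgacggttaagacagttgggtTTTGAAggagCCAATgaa
Cdk1 promoter: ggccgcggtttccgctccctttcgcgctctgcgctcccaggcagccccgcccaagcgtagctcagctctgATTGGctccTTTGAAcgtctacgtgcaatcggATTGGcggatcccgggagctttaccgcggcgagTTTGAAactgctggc
Top2a promoter: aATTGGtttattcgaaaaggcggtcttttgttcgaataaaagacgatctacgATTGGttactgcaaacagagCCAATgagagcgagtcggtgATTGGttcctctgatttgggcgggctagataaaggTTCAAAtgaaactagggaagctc

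RefSeq windows of 300 bases, from 250 before to 50 after the start, were found for 24 of the 30 genes and searched on both strands. CCAAT was in 18 of the 24 and in 41.1% of all 27025 gene symbols, counting any window of a gene. TTTGAA was in 10 of the 24 and in 20.2% of all gene symbols. Both were in the same window in 10 of the 24 and in 6.95% of all 32851 windows, a share per window rather than per gene. These are matches of letters and not shown to be bound.

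Red blood cell genes fell, against shares over all genes of 23.4% lower (1.13% large) and 27.1% higher. Of 17 tested of 18, 13 fell, 12 of them large, and 2 rose, with a median of -3.97. The summed level was 4481, 7598 and 5647 CPM in the control maxillary libraries and 2734, 2552 and 1166 CPM in the wild-type palatal libraries. At these stages the primitive red cells of the yolk sac, which are nucleated, are followed by definitive red cells from the fetal liver, which carry adult globins.

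The red cell transcription factor Gata1 went from 3.96, 7.21 and 3.23 to 0.192, 0.11 and 0.258 CPM (log2 fold change -4.65, SE 0.478, FDR 0.000389), and Klf1, a factor that drives the beta globin switch, fell by 4.34. The membrane anion exchanger Slc4a1 fell from 125, 228 and 154 to 12.8, 14.5 and 5.05 CPM (log2 fold change -3.97, SE 0.409, FDR 0.000389). Control 2 was the highest of the controls in 15 of the 17 genes.

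The globins did not move together. The embryonic beta-like gene Hbb-bh1 went from 568, 756 and 341 CPM to 7.5, 20.3 and 9.44 CPM (log2 fold change -5.48, SE 0.482, FDR 0.000204) and embryonic Hba-x from 1575, 2478 and 1619 to 95.2, 212 and 78.3 CPM (log2 fold change -3.88, SE 0.42, FDR 0.000463). The embryonic Hbb-y fell less, by 2.19. The adult beta genes rose, Hbb-bs from 47.4, 161 and 218 to 799, 415 and 259 CPM (log2 fold change 1.79, SE 0.581, FDR 0.0352) and Hbb-bt by 1.95. Of these 2 rises 0 were called without palatal library 1 or without control 2, and 1 without control 1 or palatal library 2. In the second pair 15 of the 17 red blood cell genes fell and 0 rose, where 19.9% and 23.4% of all genes did. Adult Hba-a1 and Hba-a2 read -0.73 and -0.14, not called. Adult globin genes are near-identical pairs, so their separate counts are uncertain. As a share of all beta-like globin TPM, embryonic genes made up 96.9%, 94.0% and 88.6% in the control maxillary libraries and 21.5%, 56.4% and 41.3% in the wild-type palatal libraries. The means were 93.2% ± 4.19 and 39.7% ± 17.5 (SD, n = 3 each). The 2 sets do not overlap, and an exact two-sided permutation test gave p = 0.1, the smallest that 3 against 3 allows. The alpha-like share of embryonic Hba-x was 47.9% ± 6.31 and 7.77% ± 3.19, also p = 0.1 by the exact permutation test. In the second pair the beta-like share was 95.9%, 94.2% and 91.2% in the maxillary and 28.5%, 52.5% and 62.4% in the palatal libraries.

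**Figure D5:**
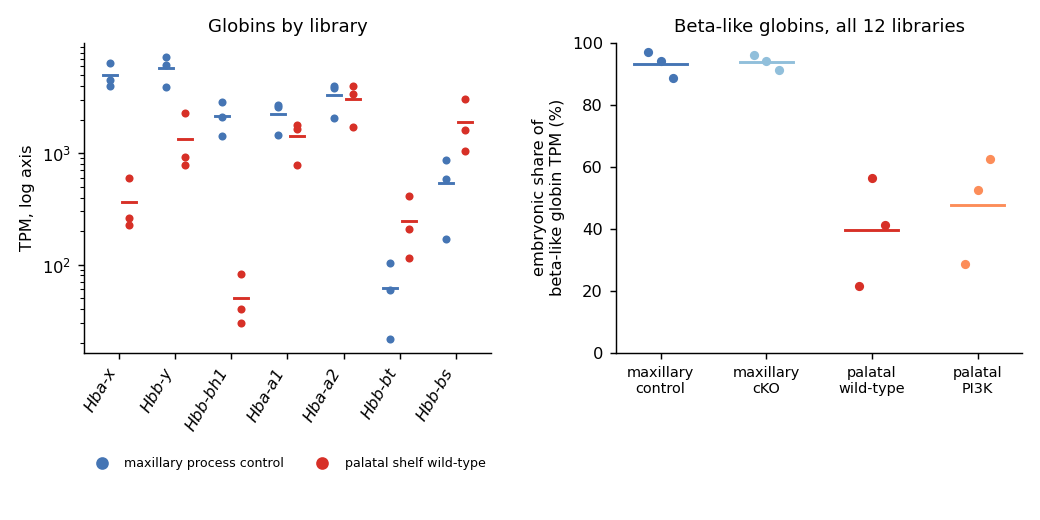
The left panel gives globin TPM (log axis) in the 6 libraries, 1 point per library with bars at the group means, and the right panel gives the embryonic genes Hbb-y and Hbb-bh1 as a percentage of all beta-like globin TPM in all 12 libraries. The 6 maxillary libraries sit between 88.6% and 96.9% and the 6 palatal libraries between 21.5% and 62.4%.

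The promoters of 1 embryonic and both adult beta-like genes are shown because these neighbours on chromosome 7 moved in opposite directions. They are the 150 bases before the start from RefSeq (GRCm38.p6), minus strand, read 5′ to 3′ along the gene: Hbb-y chr7:103853208-103853357, Hbb-bt chr7:103813924-103814073 and Hbb-bs chr7:103827929-103828078. Capitals mark CACCC, the core of the box known to bind KLF1, and CCAAT or ATTGG.
Hbb-y promoter: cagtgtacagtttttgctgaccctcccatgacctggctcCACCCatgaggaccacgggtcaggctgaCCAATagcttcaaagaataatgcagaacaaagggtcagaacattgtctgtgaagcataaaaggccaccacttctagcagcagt
Hbb-bt promoter: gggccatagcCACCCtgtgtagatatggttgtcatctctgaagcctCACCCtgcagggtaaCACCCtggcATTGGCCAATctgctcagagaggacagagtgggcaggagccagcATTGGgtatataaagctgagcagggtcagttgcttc
Hbb-bs promoter: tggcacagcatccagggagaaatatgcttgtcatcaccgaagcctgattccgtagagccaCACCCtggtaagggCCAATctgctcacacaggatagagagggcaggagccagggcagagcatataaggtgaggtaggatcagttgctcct

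In the stretches shown, CACCC occurs once in Hbb-y, 3 times in Hbb-bt and once in Hbb-bs. In the 300-base windows, searched on both strands, it was in 11 of 13 red blood cell genes and in 59.8% of all gene symbols, so it is common.

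Imprinted genes of the fetal growth network rose in part. Of 16 tested of 17, 11 rose, 4 of them large, and 0 fell, with a median of 0.93 (27.1% of all genes rose, 9.62% by a large amount). Without palatal library 1 the count was 8. Igf2, the paternally expressed growth factor, went from 604, 688 and 936 CPM to 4669, 2960 and 3709 CPM (log2 fold change 2.35, SE 0.23, FDR 0.000321), and its neighbour H19, a maternally expressed non-coding RNA, from 1287, 1513 and 1921 to 5989, 4452 and 5232 CPM (log2 fold change 1.73, SE 0.19, FDR 0.00049). Both lie apart in all libraries. Zim1 (3.55), the zinc finger factor Plagl1 (2.54) and Dlk1 (2.11) were the other large rises. Meg3 rose by 1.88 and Rian by 1.603. Mest, Grb10, Peg10, Slc38a4 and Magel2 did not pass.

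Genes of later mesenchymal fates rose in several lists, where 27.1% of all genes rose and 9.62% were large rises. Of 11 fat and pericyte genes tested 9 rose, 8 of them large, with a median of 3.07. The pericyte gene Rgs5 went from 2.18, 1.7 and 0.277 to 22.3, 32.5 and 31.8 CPM (log2 fold change 4.45, SE 0.517, FDR 0.000599) and smooth muscle actin, Acta2, from 0.264, 0.424 and 1.01 to 39.4, 17.7 and 32.5 CPM (log2 fold change 5.62, SE 0.477, FDR 0.000183). Notch3 fell by 0.37. Of 10 tendon genes 7 rose, all large, such as Mkx, a tendon homeobox gene (2.86), while Scx read 12.8, 8.79 and 2.54 CPM in the maxillary and 10.4, 14.7 and 7.92 CPM in the palatal libraries and was not called.

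Bone and cartilage genes were uneven among the palatal libraries. Of 15 bone genes tested 8 rose, 4 large, and Msx2 fell (-3.24), with a median of 1.92. Of 14 cartilage genes 8 rose, 6 large, and Sox5 fell, with a median of 1.41. For both lists the shares over all genes were 27.1% higher, 9.62% by a large amount, and 23.4% lower. Palatal library 1 was the highest palatal library for 13 of the 15 bone genes and 12 of the 14 cartilage genes. Bone sialoprotein, Ibsp, read 979.9, 0.0274 and 45.6 CPM in palatal libraries 1 to 3 and at most 0.396 CPM in the maxillary libraries. Library 2 lies within the maxillary range for it. Alkaline phosphatase, Alpl, an enzyme of mineralisation, parted the tissues in all libraries, 2.64, 7.27 and 13.7 CPM against 326, 45.1 and 118 CPM (log2 fold change 4.33, SE 0.826, FDR 0.00418). Runx2, a factor required for bone formation, read 56.5, 131 and 222 CPM in the maxillary and 207, 83.1 and 150.5 CPM in the palatal libraries, ranges that overlap, and Sox9, required for cartilage, read 115, 79.8 and 36.1 CPM in the maxillary and 117, 119.7 and 115 CPM in the palatal libraries. Without control 1 or control 2 the count of bone rises was 5 or 4. Without palatal library 1 the bone median was 1.14, with 7 higher, and the cartilage median 0.84, with 8 higher. Matn3, a cartilage matrix gene not called with it (0.58), stood at -3.85 (FDR 0.0197, edgeR) without it.

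Palatal library 1 was also highest for markers of other cells. It led in 19 of 19 macrophage genes, with a summed level of 210 CPM against 71.7 and 112 in palatal libraries 2 and 3 and 39.5 to 47.4 in the control maxillary libraries. Of these genes 12 rose and 1 fell (27.1% and 23.4% of all genes), and without library 1 the rises were 8. It led in 7 of 7 muscle genes tested, with a summed level over all 24 muscle markers of 104 CPM against 8.65 and 11.4. In libraries 2 and 3 the muscle regulator Myog was at 0.137 and 0.344 CPM, near the maxillary level, against 8.30 in library 1. In the second pair 4 of 19 macrophage genes rose and 18 of 22 muscle genes did, where 23.4% of all genes rose. The part of these cells in the bone and cartilage values was not tested.

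Endothelial markers changed by small amounts, with 8 of 16 higher and 0 lower (27.1% and 23.4% of all genes). The median was 0.42 and 0 were large. In the second pair 1 rose and 2 fell, where 23.4% and 19.9% of all genes did. Cdh5, the vascular cadherin, was among the rises of the first pair (log2 fold change 0.45, SE 0.0804, FDR 0.00313). Of 11 neural crest glia markers 4 rose and 4 fell, where 27.1% and 23.4% of all genes did. Sox10, a factor of crest and glia, fell by 1.54, from 29.4, 38.7 and 41.4 to 10.3, 14.2 and 13 CPM, and the crest factor Foxd3 by 1.80. The myelin gene Mbp rose by 0.88. Of 11 neuron markers 4 rose and 4 fell, against the same shares of all genes. The neuron rises were 2 without palatal library 1, 2 or 3 or without control 2. Of the glia rises 2 were left without palatal library 3.

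Among the largest falls outside the lists, Lix1 went from 259, 248 and 194 CPM to 3.43, 3.31 and 2.12 CPM, 79.1-fold lower (log2 fold change -6.31, SE 0.217, FDR 7.98e-06). Lef1, a transcription factor of Wnt signalling, went from 328, 560.1 and 1085 to 41.4, 40.7 and 42.9 CPM, 15.8-fold lower (log2 fold change -3.98, SE 0.416, FDR 0.00041). Hey2, a Notch target, read 21.4, 55 and 154 CPM in the maxillary and 3.72, 2.57 and 4.93 CPM in the palatal libraries. For Lef1 and Hey2 control 3 was highest and the palatal values lay close together. Emx2, a homeobox gene counted in the forebrain list, was also among the largest falls. It read 7.06, 15 and 72.9 CPM in the maxillary and 2.44, 0.465 and 1.15 CPM in the palatal libraries. Control 3 was again far above the other controls, and in the second pair the log2 fold change of Emx2 was -0.90 without a call.

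Genes of RNA splicing were listed because Srsf3 is the gene floxed in the maxillary embryos. Of 11 genes of SR proteins, a family of splicing factors, 8 fell and Srsf12 rose (1.49). The median was -0.56 and 0 were large, where 23.4% of all genes fell. The falls numbered 6 without palatal library 3. Srsf1 fell by 0.96 and Srsf10 by 0.88. Srsf6 fell by 0.36 on counts and stood at 0.00 on log2(TPM + 1).

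Srsf3 (ENSMUSG00000071172.13; chromosome 17, 29032628 to 29043373, plus strand) gave a different picture by unit. In counts it went from 632, 604 and 560.3 CPM to 331, 371 and 346 CPM without overlap (log2 fold change -0.78, SE 0.0953, FDR 0.000739). In TPM it read 470, 407 and 416 in the control maxillary libraries and 382, 481 and 378 in the wild-type palatal libraries, ranges that overlap (log2 difference -0.07 by limma on log2(TPM + 1), FDR 0.716). The effective length used to turn counts into TPM, read as log2(count / TPM) centred in each library, was shorter in the palatal shelf by 0.54 (SE 0.0813, FDR 0.0369 by limma). It moved by -0.72 (FDR 0.00581) in the second pair. Per the labels, the maxillary embryos of both pairs carried floxed Srsf3 and the palatal ones did not. Allele, tissue and stage thus cannot be told apart for this gene.

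Of 24 tissue splicing regulators 22 were tested, 9 rose and 7 fell, where 27.1% and 23.4% of all genes did. The epithelial regulators Esrp1 and Esrp2 were large rises (7.86 and 7.43), beside the ectoderm markers above. Rbm24 (4.51) and Rbfox1 (2.88) rose from below 0.5 CPM. Ptbp2, a repressor of neuronal exons, fell from 232, 229.8 and 191 to 77.1, 76.6 and 69.1 CPM (log2 fold change -1.55, SE 0.102, FDR 6.58e-05), Rbm38 by 1.42 and Celf1 by 0.85. Ptbp3 fell by 0.43 on counts and stood at 0.12 without a call on log2(TPM + 1).

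Over all genes with at least 50 counts in every library, 40 of 11093 (0.361%) changed effective length by at least 0.5 with an FDR under 0.05, 21 longer (0.189%) and 19 shorter (0.171%) in the palatal shelf. Such a shift moves with the mix of transcripts of a gene and with the fragment lengths of a library. The count was 0 without control 2, 4 without palatal library 2 and 6 without palatal library 1, against 14, 19 and 38 without control 1, control 3 and palatal library 3. Ran, a GTPase of nuclear transport, was shorter by 0.79 (FDR 0.0149), and in the second pair by 0.78 (FDR 0.000918, limma). Wrb, a receptor for tail-anchored proteins, was longer by 0.70 (FDR 0.0132), against 0.55 in the second pair (FDR 0.0872, limma). Several of the longer ones, such as mt-Atp8 (0.86) and the pseudogene Gm8325 (1.26), have the shortest effective lengths of the set, and with the trend over effective length taken out the count was 23.

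The largest fitted differences of all genes tested were in pseudogenes, whose counts are uncertain because reads can also fit near-identical copies. The pseudogene Gm28439 read 168, 226 and 254 CPM in the control maxillary libraries and 0 in the palatal libraries, at least 7394-fold lower. Gm10052 read 0 and 80, 96.3 and 61.5 CPM, at least 1409-fold higher. In the second pair the values were 155, 142 and 198 against 0, and 0 against 70.5, 76.7 and 71.6 CPM. The gene model Gm10260, annotated as protein-coding, read 230.1, 209 and 178 CPM against 0.833, 0.52 and 0.946 CPM. In the maxillary libraries labelled cKO it read 221, 209 and 0.114 CPM. There 1 library thus lay with the palatal level.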

How the data were processed

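PolyA-selected RNA-seq libraries (3 per group) were used as deposited. The authors deposited estimated counts and TPM per gene, and per the submitters' processing notes Salmon 1.1.0, STAR 2.7.0, DESeq2 1.28.1 and the build mm10 were used, with no roles given. Counts were rounded to whole numbers. TPM, the unit of the second table the authors deposited, is scaled for gene length and keeps no depth. Of 53392 identifiers 53355 matched GENCODE M21, which the sources used here do not name as the authors' annotation.

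Counts of the 6 libraries were fitted with edgeR 4.0.16 in R 4.3.3 (TMM scaling, filterByExpr, quasi-likelihood F-test, Benjamini-Hochberg FDR 0.05). CPM were scaled to the TMM-adjusted library size. TPM with a pseudocount of 1 or 0.1 and effective lengths were tested with limma 3.58.1, and DESeq2 1.42.0 was an alternative. In simulated data 100 of 15929 genes were changed at each fold, with the same spread set for every gene. There edgeR recovered 97% of 4-fold and 50% of 2-fold changes. In the real comparison 50.6% of genes were called and the spread varied by gene, so these rates may not hold for it. Bounds used a floor of 3 counts over the group. Intervals cover counting error. The fitted p-values set the difference between the groups against the spread among the libraries of a group.

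Genes named outside the lists were taken from the 15 largest large differences in each direction. These had a mean of at least 10 CPM in the higher group, with predicted gene models left out. The predicted gene models named, and the genes of effective length and of the test between pairs, were chosen apart from that rule. The members and the gene lists were chosen with earlier results of these data known. The alternatives were other scalings, filters, tools, thresholds, each library left out and a replicate block. List counts and values of the other libraries without 1 library, and embryo sex as a covariate, were added after the data were seen. Some members of the lists are counted but not reported by name here.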

Additional observations from a re-analysis of the deposited data

Results flagged for a closer look

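In a fit of all 4 groups, 7 of 16877 genes (0.0415%) passed a test (edgeR, FDR 0.05) of whether the palatal minus maxillary log2 fold change differed between the 2 pairs of groups, and 2 of the 7 are members of the lists. Foxd1, a forkhead gene of facial mesenchyme, gave 3.64 in the first pair and -0.32 in the second, a difference of 3.93 (FDR 0.00436). Its values were 5.01, 2.55 and 2.72 CPM in the control maxillary libraries, 55.4, 39.2 and 31.9 CPM in the wild-type palatal libraries, 86.7, 48.3 and 63.9 CPM in the maxillary libraries labelled cKO and 55.6, 51 and 52.9 CPM in the PI3K palatal libraries. The control maxillary libraries are thus the low group. Aldh1a2, an enzyme that makes retinoic acid, gave 0.05 and 3.50, a difference of -3.47 (FDR 0.0179). It read 32.6, 78 and 49 CPM in the control maxillary and 56.5, 57.1 and 51.4 CPM in the wild-type palatal libraries. In the maxillary libraries labelled cKO it read 12.8, 7.96 and 8.59 CPM and in the PI3K palatal libraries 71.6, 141 and 121 CPM. Here the maxillary libraries labelled cKO are low and the PI3K palatal libraries high.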

How the results depend on the processing

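The number of genes called lower fell from 3691 to 1966 with limma on log2(TPM + 1) and 1811 on log2(TPM + 0.1). Of all genes 1714 were called when tested against a fold change of 2 (glmTreat). The number of large differences was 692 on log2(TPM + 1) (630 higher and 62 lower), 3325 (2663 and 662) with a minimum absolute log2 fold change of 1 and 993 (902 and 91) with 3. Leaving out 1 library gave 5877 to 8473 genes called and 1522 to 2050 large differences. With the replicate number as a block 6835 genes were called and 1647 were large. Same-numbered libraries deviated together by -0.167, 0.0461 and -0.0111 (correlations), and not every library correlated best with its own number, so the numbers do not pair the samples. For effective length the count of 40 became 0 with the replicate block, 23 with the length trend removed, 4 at a minimum shift of 1 and 0 to 38 leaving out 1 library, and the cause was not tested. Reversed values were Matn3 at -3.85 without palatal library 1, and on log2(TPM + 1) and log2(TPM + 0.1) Ets1 at 0.0824 and 0.0844, Srsf6 at 0.000115 and 0.00011, Ptbp3 at 0.12 and 0.123, and Ccne2 at 0.0765 and 0.0786. Maxillary libraries are the shallower ones, which limits how low a level can be read there.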

Other observations

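Early response genes, which tissue handling can induce, were mixed, with 5 of 18 tested higher and 2 lower, where 27.1% and 23.4% of all genes were. Egr2 (4.97), Egr3 (4.79) and Egr1 (2.21) were large rises. The rises were 3 without palatal library 3, and the falls were 4 without control 3. Of 20 glycolysis and hypoxia genes 6 rose and 2 fell, against the same shares of all genes. In the second pair 1 rose and 3 fell, where 23.4% and 19.9% of all genes did. The falls of the first pair include Gapdh, a glycolytic enzyme often used as a reference, which went from 2970, 2725 and 1993 to 1320, 1534 and 1421 CPM (log2 fold change -0.85, SE 0.166, FDR 0.00471).

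The other 5 genes whose fold change differed between the 2 pairs (edgeR, FDR 0.05) were chosen after their values were seen. First and second pair gave -1.15 and -10.6 for Zic2, -1.59 and -5.37 for Pou3f4, 0.56 and 2.61 for Lrrc4b, -1.59 and 0.22 for L1cam, and -0.90 and 0.70 for H2afv.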
